A study of Capra hircus with 2 samples.

Results

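In all, 9 transcripts of muscle fatty acid uptake and oxidation were described in the longissimus thoracis, a back muscle, of Chinese Xuhuai goats (Capra hircus). They were chosen by accession, as 9 of the 11663 cattle RefSeq transcript accessions listed in either library, and all 9 had reads in both. The files list accessions without gene names, so the symbols CD36, FABP3, LPL, CPT1B, CPT2, ACADM, ACADVL, UCP3 and PPARGC1A are those that came with the choice of accessions. Of these symbols, 8 were matched in the goat RefSeq gene table (assembly ARS1.2), whereas 0 of the 11663 accessions were. There was 1 library from goats aged 6 months, with 9144138 unique reads over 10850 accessions, and 1 from fetuses at day 90 of a gestation of 150 days, with 12811117 unique reads over 11393 accessions. The labels name no treatment or genetic change in either group and give neither the sex nor the number of animals behind a library. The tissue label was not checked against marker genes, since the other accessions carry no gene names. The sampling text of the 6-month sample repeats the description of embryo collection. With a single library at each stage the spread between animals is unknown, and no difference below has a replicate check or a p-value.

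Skeletal muscle takes up long-chain fatty acids that are freed from circulating lipoproteins by lipoprotein lipase, passed across the plasma membrane with the help of CD36 and carried in the cytoplasm by fatty acid binding protein. Carnitine palmitoyltransferases then bring them into mitochondria, where acyl-CoA dehydrogenases, each preferring a range of chain lengths, open each round of beta-oxidation. In mammals this pathway is known to gain in importance after birth, when fat from milk becomes a fuel.

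All 9 transcripts were higher in the 6-month library than in the fetal library. The ratio of read shares ranged from 2.66-fold for CPT2 to 1249-fold for UCP3, and for each of the 9 the lower end of the exact 95% interval for counting error lay above 2-fold. The sum of the 9 RPKM values (unique reads normalised by the authors to transcript length and to the library's total) came to 1709 in the 6-month library, against 237 in the fetal library, a ratio of 7.21. Together these transcripts took 0.243% of the 6-month reads and 0.0360% of the fetal reads. In bulk tissue, fewer cells of a type and less RNA per cell cannot be told apart, and this holds for every level below.

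**Figure D1:**
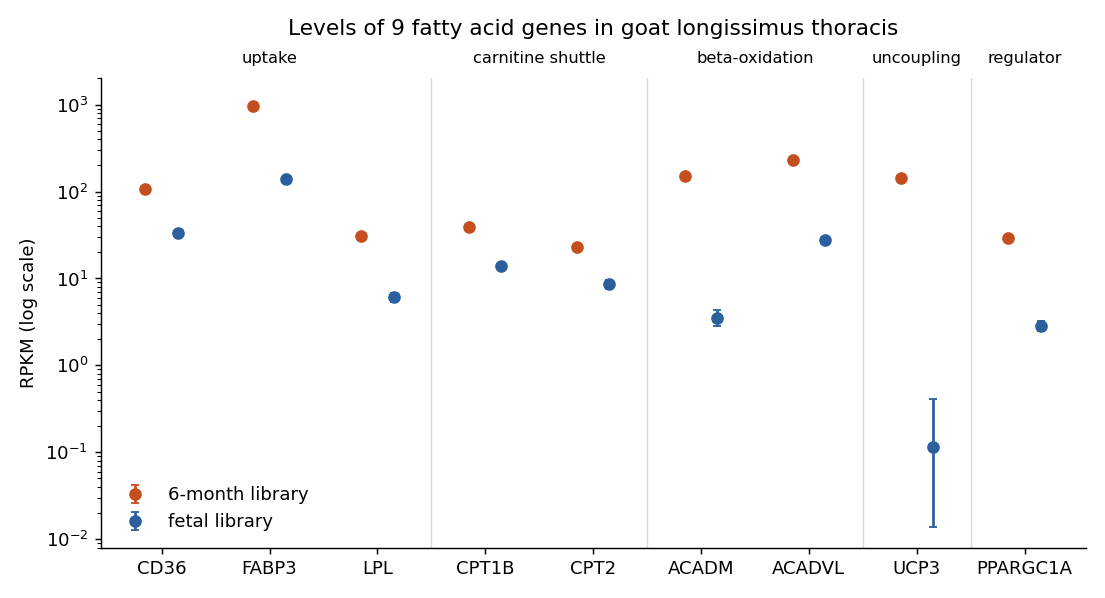
RPKM of each transcript on a log axis, with the 6-month library to the left of the fetal library and the genes grouped by role. Bars are exact Poisson 95% intervals and cover counting error only. Every 6-month value lies above its fetal value, with the widest gap for UCP3 (RPKM 143 at 6 months, against 0.11 in the fetal library).

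Among the genes of uptake, FABP3 (NM_174313, 684 bases), the cytoplasmic fatty acid carrier of heart and muscle, had 5991 reads (RPKM 958) in the 6-month library, against 1233 reads (RPKM 141) in the fetal library. Its share of the reads was 6.81-fold higher at 6 months (95% counting interval 6.40 to 7.24). FABP3 was the most abundant of the 9 transcripts in both libraries and ranked 98 of 10850 listed accessions by RPKM at 6 months, against 516 of 11393 in the fetal library. CD36 (NM_174010, 2772 bases), the membrane fatty acid translocase, had 2718 reads (RPKM 107) at 6 months, against 1188 reads (RPKM 33.5) in the fetal library. The share of CD36 was 3.21-fold higher at 6 months (2.99 to 3.43). LPL (NM_001075120, 3646 bases), the lipase that releases fatty acids at the capillary wall, had 1028 reads (RPKM 30.8) at 6 months, against 283 reads (RPKM 6.06) in the fetal library, a share 5.09-fold higher at 6 months (4.46 to 5.83). The RPKM of CD36 was 3.48 times that of LPL at 6 months, against 5.52 times in the fetal library.

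The carnitine shuttle showed the smallest ratios of the 9. CPT1B (NM_001034349, 2998 bases), the muscle form of the outer-membrane carnitine palmitoyltransferase and the regulated entry step, had 1085 reads (RPKM 39.6) at 6 months, against 538 reads (RPKM 14.0) in the fetal library. Its share was 2.83-fold higher at 6 months (2.55 to 3.14). CPT2 (NM_001045889, 2520 bases), the inner-membrane enzyme that completes the transfer, had 524 reads (RPKM 22.7) at 6 months, against 276 reads (RPKM 8.55) in the fetal library. Its share was 2.66-fold higher at 6 months (2.29 to 3.09). The RPKM of CPT1B was 1.74 times that of CPT2 at 6 months and 1.64 times that of CPT2 in the fetal library. This proportion differed between the libraries by 1.06-fold, with a 95% interval of 0.88 to 1.27 that includes 1, so no change in the CPT1B to CPT2 proportion was detectable at this depth.

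The acyl-CoA dehydrogenases of beta-oxidation differed from each other. ACADM (NM_001075235, 2146 bases), the medium-chain enzyme, had 2932 reads (RPKM 149) at 6 months, against 97 reads (RPKM 3.53) in the fetal library. Its share was 42.3-fold higher at 6 months (34.6 to 52.4), and its rank by RPKM was 484 of 10850 at 6 months, against 7760 of 11393 in the fetal library. ACADVL (NM_174494, 2140 bases), the very-long-chain enzyme of the inner membrane, had 4499 reads (RPKM 230) at 6 months, against 757 reads (RPKM 27.6) in the fetal library, a share 8.33-fold higher at 6 months (7.71 to 9.005). The RPKM of ACADVL was 1.54 times that of ACADM at 6 months, against 7.83 times in the fetal library. The proportion of ACADM to ACADVL was thus 5.09-fold higher at 6 months (4.09 to 6.38), a comparison within each library that does not depend on how the libraries are scaled to each other.

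UCP3 (NM_174210, 1367 bases), a mitochondrial inner-membrane carrier found mainly in skeletal muscle, showed the largest ratio of the 9. It had 1783 reads (RPKM 143) at 6 months, against 2 reads (RPKM 0.11) in the fetal library. The ratio of 1249 rests on those 2 fetal reads, and its interval of 345 to 10321 is correspondingly wide. The 2 fetal reads covered 13.2% of the 1367 bases, or 180 bases, which is the length of 2 read spans of 90 bases that do not overlap. UCP3 ranked 505 of 10850 at 6 months, close to ACADM, and 10910 of 11393 in the fetal library.

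PPARGC1A (NM_177945, 6324 bases), a transcriptional coactivator of mitochondrial and fatty acid oxidation genes, had 1671 reads (RPKM 28.9) at 6 months, against 233 reads (RPKM 2.88) in the fetal library. Its share was 10.05-fold higher at 6 months (8.76 to 11.6). LPL had nearly the same RPKM as PPARGC1A at 6 months and an RPKM 2.11 times higher in the fetal library. In both libraries PPARGC1A was next to the lowest of the 9 by RPKM.

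**Figure D2:**
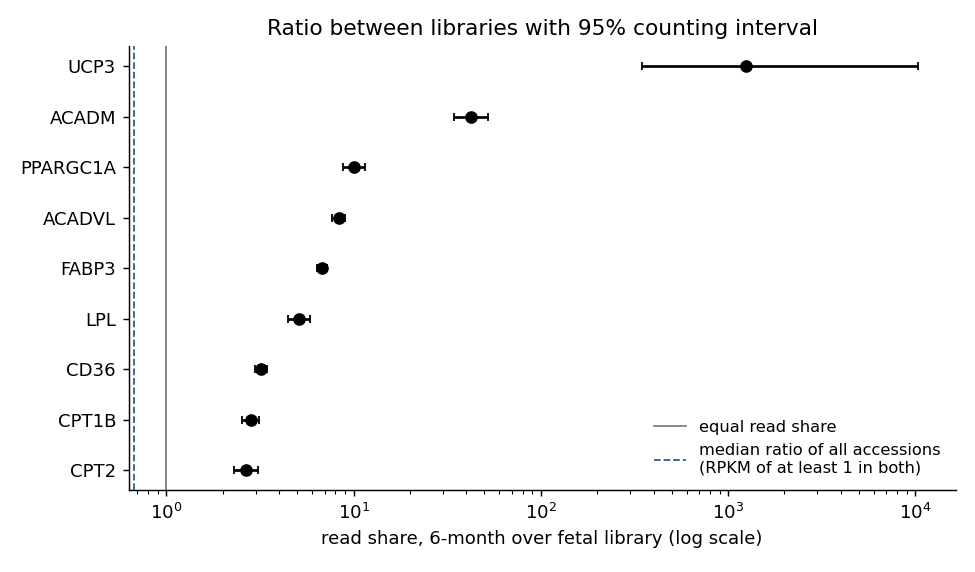
Ratio of read shares of the 6-month over the fetal library for each transcript on a log axis, with exact conditional binomial 95% intervals that cover counting error only. All 9 intervals lie above 2-fold, whereas the median ratio of all accessions that reached an RPKM of 1 in each library, drawn as a dashed line, lies below 1.

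The 9 transcripts were set against all accessions on the scale of log2(RPKM + 1), 6-month minus fetal, where the added 1 understates the differences of low transcripts. An accession was called higher or lower when this difference was at least 1 log2 unit, among the 9705 accessions that reached an RPKM of 1 in at least 1 library. All 9 transcripts entered this comparison. UCP3, with an RPKM of 0.11 in the fetal library, entered through its 6-month level alone and could not have been called lower. At this threshold 9 of 9 were called higher at 6 months, whereas 9.46% of all accessions were called higher and 35.1% were called lower. The 9 were chosen with earlier results of these data known, so these shares describe the libraries and are not a test. The median difference of the 9 was 2.76 log2 units (range 1.31 to 7.01), against -0.61 over all accessions compared (interquartile range -1.30 to 0.14). At a threshold of 2 log2 units, 6 of the 9 were called higher, against 3.49% of all accessions, while 10.8% of all accessions were lower by as much. The 3 that were not are CD36 (1.65), CPT1B (1.44) and CPT2 (1.31). UCP3 had the fifth largest difference in favour of 6 months and ACADM the 18th of the 9705, while CPT2 was exceeded by 6.83% of all accessions.

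**Figure D3:**
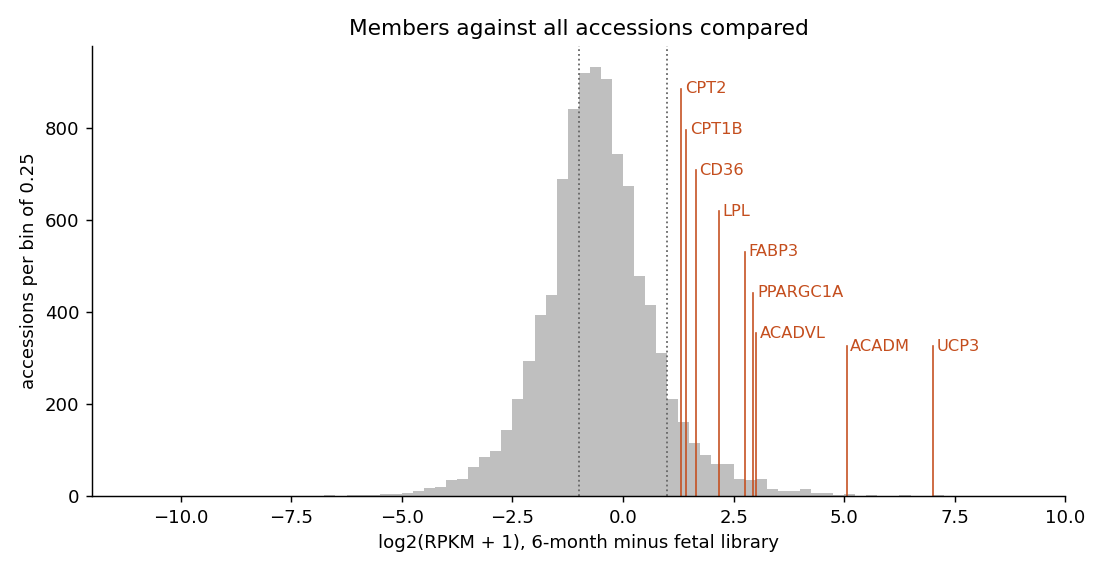
Number of accessions in bins of the log2(RPKM + 1) difference, 6-month minus fetal library, for all 9705 accessions compared (grey), with the 9 transcripts as labelled lines of arbitrary height and dotted lines at 1 and -1. The bulk of accessions lies below 0, and the 9 transcripts lie between 1.31 and 7.01.

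RPKM depends on the total of its own library, and most accessions had the lower RPKM at 6 months. The median log2 ratio of 6-month to fetal RPKM was -0.58 over the 8201 accessions that reached an RPKM of 1 in each library. Relative to that shift, after centring on the median ratio, the 9 differences ranged from 1.87 for CPT2 to 7.59 for UCP3, with a median of 3.34 log2 units. After centring, 9 of 9 were again called higher, against 17.2% of all accessions, and 22.3% of all accessions were called lower. All accessions called higher and lower numbered 918 and 3411 on the deposited RPKM and 1674 and 2162 after centring.

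The order of the 9 levels differed between the libraries. At 6 months it ran, from high to low RPKM, FABP3, ACADVL, ACADM, UCP3, CD36, CPT1B, LPL, PPARGC1A and CPT2. In the fetal library it ran FABP3, CD36, ACADVL, CPT1B, CPT2, LPL, ACADM, PPARGC1A and UCP3. Neighbours whose levels did not differ beyond counting error were ACADM and UCP3 (ratio 1.05, 95% interval 0.99 to 1.11) and LPL and PPARGC1A (1.07, 0.99 to 1.15) at 6 months. In the fetal library these were ACADM and PPARGC1A (1.23, 0.96 to 1.56). Levels of different genes may also depend on how well goat reads matched each cattle transcript. This was not tested, and the counting intervals do not cover it. FABP3 made up 56.0% of the summed RPKM of the 9 at 6 months and 59.4% in the fetal library, so its part was similar at both stages. CD36 made up 6.27% at 6 months, against 14.1% in the fetal library. ACADM made up 8.74% at 6 months, against 1.49% in the fetal library, and UCP3 8.35% at 6 months, against 0.048% in the fetal library. Without FABP3, the RPKM values summed to 751 at 6 months and 96.2 in the fetal library, a ratio of 7.81. By role, the sum was 6.08 times higher at 6 months for the 3 uptake genes, 2.76 times for the carnitine palmitoyltransferases and 12.2 times for the acyl-CoA dehydrogenases.

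Proportions between members do not depend on the scaling of one library to the other, and all 36 pairs were compared by the odds ratio of their reads. The 95% counting interval excluded 1 for 35 pairs, and the exception was CPT1B with CPT2. The nearest to it was CD36 with CPT1B, whose proportion was 1.13-fold higher at 6 months (1.0001 to 1.29), followed by CD36 with CPT2 (1.21-fold, 1.02 to 1.42). PPARGC1A and ACADVL also had similar ratios between libraries, with a proportion 1.21-fold higher at 6 months (1.03 to 1.42), and so had ACADVL and FABP3 (1.22-fold, 1.11 to 1.35). Among pairs without UCP3, the proportions that differed most were those of ACADM with the carnitine palmitoyltransferases. ACADM relative to CPT2 was 15.9-fold higher at 6 months (12.3 to 20.6), and ACADM relative to CPT1B 14.98-fold (11.9 to 19.0). These intervals cover counting error only, take the reads as independent and were not adjusted for the number of pairs.

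The share of each transcript covered by reads was compared with its depth. FABP3 was covered over 97.4% at 6 months and 97.2% in the fetal library. For ACADVL these values were 93.4% at 6 months and 93.2% in the fetal library. CD36 was covered over 85.03% at 6 months, at 88.2 read bases per transcript base, and over 84.2% in the fetal library, at 38.6. A similar share of CD36 thus went unread in both libraries in spite of the difference in depth. Coverage differed most between the libraries for UCP3, with 97.6% at 6 months and 13.2% in the fetal library, where it had 2 reads. After UCP3, it differed most for ACADM, LPL and PPARGC1A. ACADM was covered over 83.4% at 6 months, at 123 read bases per base, and over 57.6% in the fetal library, at 4.07. LPL was covered over 85.3% at 6 months, at 25.4 read bases per base, and over 62.3% in the fetal library, at 6.99. PPARGC1A, the longest of the 9 with 6324 bases, reached 90.6% at 6 months, at 23.8 read bases per base, and 77.3% in the fetal library, at 3.32. Reads placed at random at the fetal depth would cover 98.3% of ACADM, 99.9% of LPL and 96.4% of PPARGC1A. At the 6-month depth they would cover about 100% of each. The coverage seen was lower than this in both libraries for all 3. The other transcripts were likewise covered less than random placement gives, except UCP3 in the fetal library (13.2% seen, 12.3% at random). The reason was not tested. CPT1B was covered over 95.8% at 6 months and 92.03% in the fetal library. CPT2 was covered over 80.0% at 6 months and 76.6% in the fetal library. Dividing reads by the covered length in place of the full length left all 9 transcripts at the same place in the order of levels of both libraries.

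**Figure D4:**
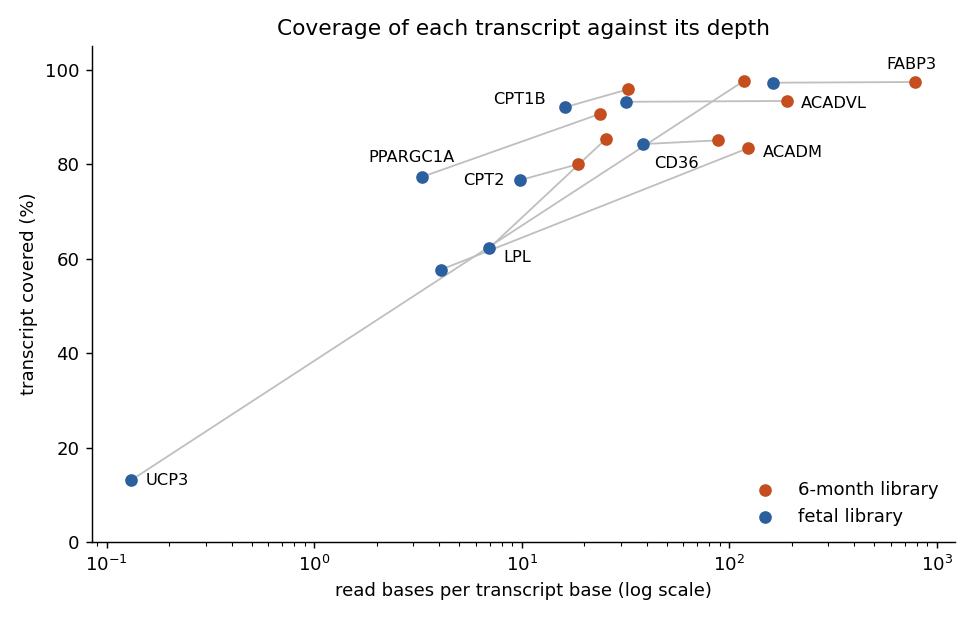
Percentage of each transcript covered by reads against read bases per transcript base (reads times 90 bases over length, log axis), with a grey line joining the libraries for each gene. CD36, FABP3 and ACADVL have nearly the same coverage in both libraries, and UCP3 has 97.6% at 6 months and 13.2% in the fetal library.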

How the data were processed

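RNA sequencing libraries of longissimus thoracis were compared, 1 at 6 months and 1 at fetal day 90. Per the labels' protocols, Trizol was used for RNA and standard Illumina procedures for the libraries. Per the file headers, the authors deposited the count of unique reads per transcript accession, the transcript length, the covered percent of the transcript and the RPKM. For the aligner, counting rules, strand and genome build, the sources used here give nothing. The counts summed to the totals in the headers. In all 561 cases of an accession with 1 read, the covered stretch was 90 bases within rounding, which was used as the read span.

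The members and gene lists were chosen with earlier results of these data known. All 9 members are named. Lists of further pathway genes and of cell type markers could not be used, as the accessions carry no symbols. Differences are log2(RPKM + 1), 6-month minus fetal, over accessions that reached an RPKM of 1 in at least 1 library. Ratios of reads have exact conditional binomial (Clopper-Pearson) 95% intervals, pairs of members conditional odds ratios, and single levels exact Poisson intervals. All cover counting error only and take the reads as independent. Reads copied by PCR are not independent, so the intervals can be too narrow. A count of 0 would allow up to 3.28e-05% of the 6-month reads and 2.34e-05% of the fetal reads (3 counts). Calling was tested on simulated Poisson counts only. These hold no spread between animals and no reads copied by PCR, so the simulation tells nothing about either. Tools were SciPy 1.17.1, NumPy 2.4.6, pandas 2.3.3, matplotlib 3.10.9 and Python 3.11.15, with edgeR 4.0.16 in R 4.3.3 for the TMM factors only.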

Additional observations from a re-analysis of the deposited data

How the results depend on the processing

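No paired analysis was possible because each stage has 1 library, and for the same reason no replicate could be left out. All 9 transcripts were called higher at 6 months in the 10 alternatives that kept the threshold of 1 log2 unit (other pseudocounts, filters and scalings). With the threshold of 2, 6 were called. Most of these alternatives could not have removed a call at the threshold of 1. Every other scaling divided the 6-month values by less than 1 (0.64 to 0.93), which raises all 9 differences, as does the pseudocount of 0.1. In the 6-month library the 9 transcripts also lie well above each filter. UCP3 passed the filter of RPKM 1 through the 6-month library alone. At the filter of RPKM 5 this also held for ACADM and PPARGC1A. A transcript that passes in this way could not have been called lower. Only the pseudocount of 5 lowered the 9 differences. Over the 63 values of single members under other pseudocounts and scalings, 0 changed sign and 0 lay under 1 log2 unit. The lowest was 1.03 for CPT2 with a pseudocount of 5. The difference of UCP3 ranged from 4.85 (pseudocount 5) to 9.38 (pseudocount 0.1), since its fetal value is near 0. Over all accessions, the number called higher became 1674 with the median ratio, 1784 with TMM factors, 1544 with the upper quartile and 339 with the threshold of 2. The number called lower became 2162, 2055 and 1051 with the median ratio, TMM and the threshold of 2, and 1811 with a pseudocount of 5. The ratio of summed RPKM, 7.21 on the deposited values, was 7.77 with transcripts-per-total scaling, 10.8 with the median ratio, 11.3 with TMM, 8.46 with the 50 most abundant accessions left out of the totals, 10.2 with the upper quartile and 7.81 without FABP3. The order of levels within each library was the same with covered length and with length less a read span. Depth limits the fetal level of UCP3, with 2 reads, and of ACADM, with 97.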
